A study of Danio rerio with 12 samples.

Results

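Genes for the receptors and the release machinery of chemical synapses were followed across brain, intact retina and lesioned retina of adult zebrafish. They were chosen by gene symbol: a gene entered where the platform annotation gave its probe set that symbol alone and the symbol began as those of ionotropic glutamate, metabotropic glutamate, GABA-A or glycine receptors, synaptotagmins, SNAP25, syntaxins, VAMPs, complexins, or the slc17a and slc6a transporters. This gave 40 genes with 48 probe sets, of 8793 genes and 15502 probe sets on the array, and no metabotropic glutamate receptor gene was among them. For the 8 genes with more than 1 probe set, the one with the highest mean of brain and retina signals was used. Total RNA had been hybridized to 12 Affymetrix zebrafish arrays, each read as 1 signal intensity per probe set. There was 1 array of unlesioned brain and 1 of unlesioned retina called the true control. Control retina and lesioned retina each had 1 array at 2, 3, 5, 7 and 14 days post-lesion, and the design text calls the animals matched, with at least 8 per condition. Not given in the sources used here were the strain, the way the lesion was made and any pooling of animals. Each day and tissue therefore has a single array, and p-values reflect only how much these arrays vary, part of which may be technical.

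At a chemical synapse, calcium entry makes vesicles fuse with the membrane. A VAMP protein on the vesicle pairs with a syntaxin and SNAP25 on the plasma membrane to form the SNARE complex, synaptotagmins sense the calcium, and complexins hold and then help release the assembled complex. In the retina, photoreceptors and bipolar cells release glutamate at ribbon synapses. Among the cells that receive it through AMPA, kainate or NMDA receptors are ganglion cells and only some of the bipolar cells. Amacrine cells inhibit their partners with GABA and glycine. Several of the chosen genes act outside synapses: 10 of them encode syntaxins and VAMPs of general membrane traffic, and slc6a19a.1 and slc6a19b belong to a family known in mammals for amino acid uptake in gut and kidney.

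The arrays formed 2 blocks of 6, found from their hybridization control signal. Block 1 held brain, the true control and days 2 and 14, and block 2 held days 3, 5 and 7, so control and lesioned arrays of a day were always together. The GAPDH 5'/3' signal ratio, a measure of RNA integrity, ranged from 0.692 to 0.854 in block 1 but from 0.103 to 0.245 in block 2, and it was lower in the lesioned array on 5 of 5 days. Median signals were 194.5 to 207.1 for block 1 arrays and 135 to 154 for the others. Marker genes were read without a filter to check the tissue labels. Brain was below all 6 unlesioned retinas for each of the 6 rod and 11 cone genes measured, and above all of them for 17 of the 18 brain regional genes, with emx3 dim in both. No marker on any of the lists was at 0 in any array.

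**Figure D1:**
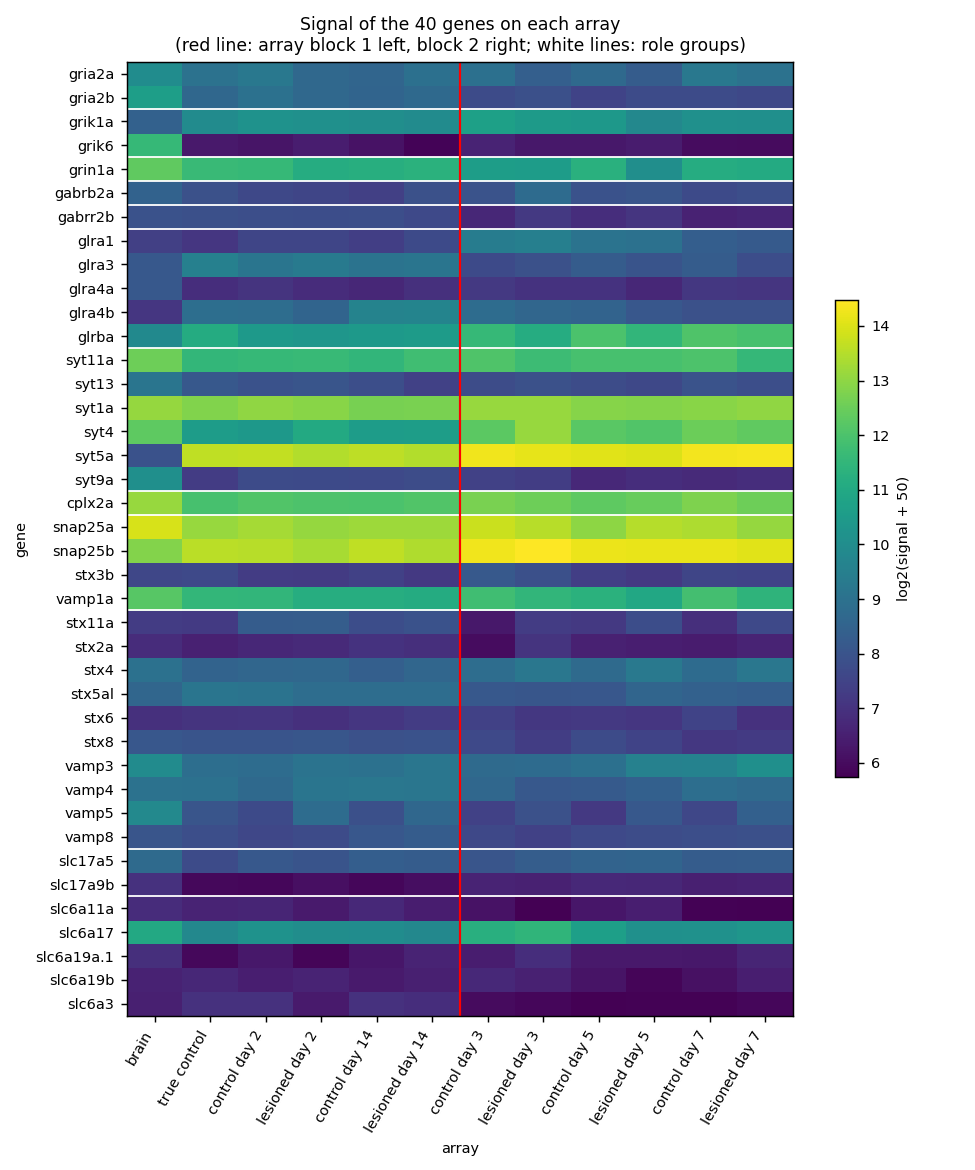
Heat map of log2(signal + 50) for the 40 genes (rows, by role group) on the 12 arrays (columns), with a red line between array block 1 and block 2. Colours can be followed along a row, but rows are different probe sets and their levels are not comparable; syt5a is dark in brain alone, grik6 is bright in brain alone, and syt4 and glra1 step up at the block line.

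The first comparison asked which of these genes differ between brain and intact retina. Brain was higher for 12 genes and lower for 5 of the 32 that passed the filter on low signals. The kainate receptor gene grik6 and the synaptotagmin gene syt5a stood at opposite ends, grik6 high in brain and syt5a high in retina. Both AMPA receptor genes, 4 of 6 synaptotagmin genes and the complexin gene cplx2a were higher in brain, while grik1a, glra3, glra4b and snap25b were lower. Over all 9301 probe sets tested, 13.5% were called higher in brain and 10.1% lower at a limma adjusted p under 0.05, against 37.5% and 15.6% of the 32 genes. At an unadjusted p under 0.05, 18 genes were higher and 6 lower, where 19.8% and 14.3% of all probe sets were so. The median log2 difference was 0.70 for the 32 genes and 0.06 for all probe sets. Passing the filter favoured genes that are bright in a single tissue: gabrr2b, glra4a, grik6 and syt9a passed through brain alone, and glra1 and glra4b through retina alone. Without the filter, the median over the 40 genes was 0.37 and 17 were called, 15 of them as with it. Gabrb2a (adjusted p = 0.0695) and vamp3 (0.0577) then lost their calls, and the dim genes slc17a9b (1.09 ± 0.19; 0.00410) and slc6a19a.1 (0.76 ± 0.21; 0.0418) gained one. The fit used 1 brain array and the 6 unlesioned retinas with the block as a term, so each difference is between brain and the 3 retinas of its own block. The brain array was assumed to vary like the retinas. In simulated data this fit recovered 24% of changes of log2 1 and 80% of log2 2, so a gene that did not pass may still differ.

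Among the glutamate receptor genes, grik6 had a signal of 3040 in brain and of 16 to 46.6 in the 6 unlesioned retinas, with a median of 26.8. Brain thus lay far above every retina, and the retina signals were near or under the lower quartile of the arrays (35.3 to 81.2). The fitted log2 difference was 5.35 ± 0.26 (SE; 1 brain and 6 retina arrays; limma adjusted p = 6.69e-07), a size that depends on the 50 added to each signal before the logarithm. The other kainate receptor gene, grik1a, went the opposite way. It encodes GluK1, which in mammals is found on OFF bipolar cells. Its signal was 298.5 in brain, 935, 1113 and 1017 in the retinas of block 1 and 1052 to 1605 in those of block 2. Every retina was thus above brain, by 3.07-fold on the log2(signal + 50) scale within block 1 (log2 difference -1.62 ± 0.26; adjusted p = 0.00194).

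The AMPA receptor subunit GluA2, which in mammals limits the calcium permeability of the receptor, is encoded here by gria2a and gria2b. For gria2b, brain read 1540.3, the block 1 retinas 355, 455 and 322, and the block 2 retinas 130 to 165. Brain was above all 6 retinas, and the retinas themselves split by block. The log2 difference was 1.91 ± 0.24 (adjusted p = 0.000404). For gria2a, brain read 967 and the retinas 337.5 to 558, with no split between blocks. Its difference of 1.03 ± 0.30 passed (adjusted p = 0.0338) but did not without the true control (adjusted p = 0.0555) or without control day 14 (adjusted p = 0.0697). The NMDA receptor gene grin1a, for the subunit that every NMDA receptor needs, read 5082 in brain and 1511 to 3208 in the retinas. Its log2 difference of 0.83 ± 0.30 missed the threshold (adjusted p = 0.0757), but passed without control day 3 (adjusted p = 0.0300) and against block 1 retinas alone (adjusted p = 0.0307). Its second probe set gave 0.08 ± 0.27 (adjusted p = 0.870).

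Inhibitory receptor genes were divided. The GABA-A receptor gene gabrb2a was higher in brain, at 307.5 against 120 to 203 (log2 difference 0.83 ± 0.25; adjusted p = 0.0398). That call was lost without control day 2 (adjusted p = 0.0903), day 5 (0.0609) or day 14 (0.0930), and with no block term (0.186). The rho subunit gene gabrr2b, of a receptor class known in mammals from bipolar cell terminals, read 195 in brain and 183, 177 and 180.3 in the block 1 retinas, with a difference of 0.09 that did not pass. In block 2 its signals were 45.2 to 66.9, so the spread among retinas was wider than the gap to brain.

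Of 5 glycine receptor genes, glra4a was higher in brain, glra3 and glra4b were lower, and glra1 and glrba did not pass. Signals of glra4b were 88.2 in brain and 188 to 756 in the retinas, with a median of 408, and no retina was as low as brain (log2 difference -2.02 ± 0.40; adjusted p = 0.00585). The alpha subunit gene glra4a read 232 in brain and 54.9 to 94.3 in the retinas, again without overlap (1.25 ± 0.23; adjusted p = 0.00377). The call for glra3 rested on block 1: brain read 232, the block 1 retinas 698, 511 and 479.5, and the block 2 retinas 157, 259 and 264. Brain lay inside the range of the 6 retinas, and the difference of -1.10 ± 0.30 (adjusted p = 0.0263) missed the threshold without the true control (0.0608) or without control day 2 (0.0521). The beta subunit gene glrba, whose product anchors glycine receptors to the scaffold protein gephyrin, read 884 in brain and 1336 to 4246 in the retinas, and its difference of -0.80 ± 0.32 did not pass (adjusted p = 0.104).

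**Figure D2:**
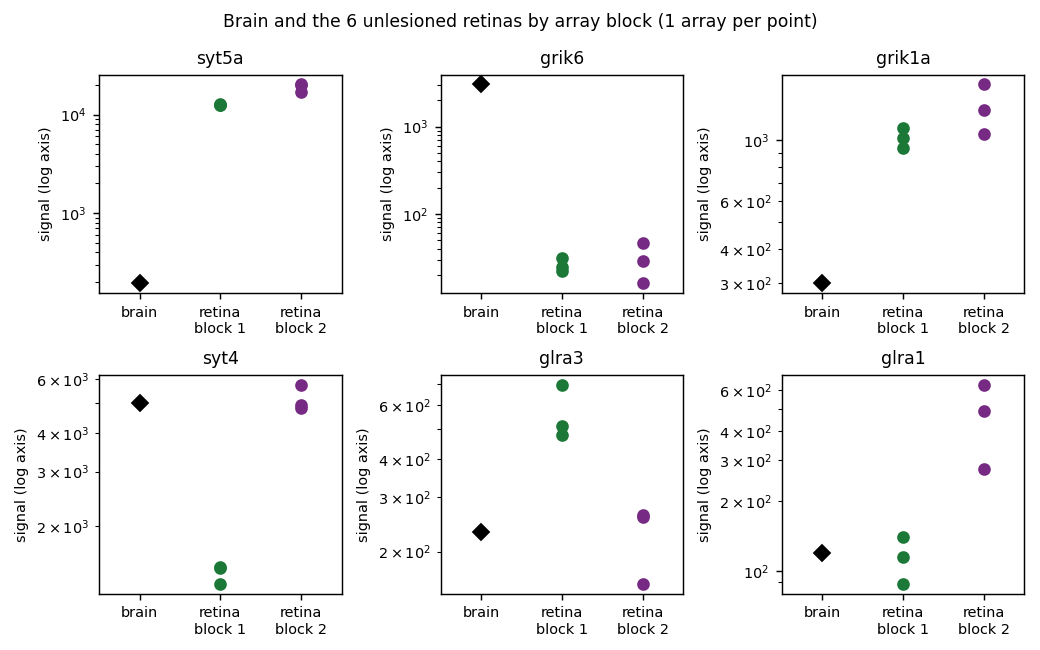
Signals of 6 genes (log axes) in brain and in the unlesioned retinas of array blocks 1 and 2, 1 array per point. For syt5a, grik6 and grik1a brain lies outside the range of all 6 retinas, whereas for syt4, glra3 and glra1 the blocks separate and brain lies inside that range.

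The synaptotagmin gene syt5a differed as widely as grik6, in the other direction, and which of them was wider depended on the pseudocount: at 16 the log2 differences were -5.91 and 6.19. Syt5a read 194 in brain, 12535, 12837 and 12398 in the block 1 retinas, and 17089 to 20164 in the block 2 retinas. No retina came near the brain value, and the fitted difference was -5.69 ± 0.18 on the log2 scale, or 51.8-fold (adjusted p = 3.28e-08). In whole tissue, fewer cells of a type and less RNA per cell cannot be told apart. Genes of several retinal cell types were also lower in brain. The summed signal of the 6 rod genes was 638 in brain and 48298 to 65167 in the retinas. That of the 11 cone genes was 1697 and 219174 to 280782. Brain was also below all 6 retinas for 2 of 2 bipolar genes and 6 of 9 amacrine genes, with 1 amacrine gene above. For 10 Müller glia genes, brain was below all retinas for 4, among them rlbp1a (log2 difference -5.47 ± 0.22), and above for 5. The part of any of these cell types in the syt5a difference was not tested.

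Another synaptotagmin gene, syt9a, was higher in brain, with 1033 against 57.6 to 164 in the 6 retinas (log2 difference 2.52 ± 0.31; adjusted p = 0.000370). In mammals its namesake is a fast calcium sensor in some forebrain neurons. Signals of syt13 were 515 in brain and 168 to 233 in the retinas (1.17 ± 0.22; adjusted p = 0.00419), and those of syt11a were 5880 and 2842 to 4232 (1.0 ± 0.19; adjusted p = 0.00454). In mammals neither product acts as a calcium sensor, and for both genes brain was above every retina with the probe set used. Like others named below, the call for syt4 depended on the block. Brain read 5013, the block 1 retinas 1453, 1297 and 1469, and the block 2 retinas 4832 to 5743. The block 2 retinas were thus as high as brain, and the difference of 1.80 ± 0.21 (adjusted p = 0.000254) was 0.88 (adjusted p = 0.604) with no block term. For syt1a, the main calcium sensor of fast release, brain read 8670 and the retinas 6579 to 8781, and the difference of 0.25 ± 0.20 did not pass (adjusted p = 0.424). The complexin gene cplx2a was higher in brain, at 8855 against 3884 to 6987 (1.11 ± 0.23; adjusted p = 0.00701).

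Of the 4 neuronal SNARE genes, only snap25b passed, and it was lower in brain: 7401 against 11783 to 19744 in the retinas (log2 difference -0.71 ± 0.15; adjusted p = 0.00823). Its paralog snap25a, which encodes the same membrane partner of syntaxin, read 15587 in brain and 7981 to 13774 in the retinas. Brain was therefore above all retinas for one copy and under all for the other, but the difference of 0.73 ± 0.27 for snap25a did not pass (adjusted p = 0.0807). The synaptobrevin gene vamp1a read 4665 in brain and 2253 to 3696 in the retinas (0.81 ± 0.27; adjusted p = 0.0549), and passed against block 1 retinas alone (0.0271), without control day 5 (0.0333) and after quantile normalization (0.0417). For stx3b, related to the syntaxin of mammalian ribbon synapses, brain at 144 was within the retina range of 105 to 240.4.

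Among the syntaxins and VAMPs of general traffic, vamp5 and vamp3 were higher in brain and the other 5 tested did not pass. The vamp5 signal was 882 in brain and 95.0 to 212 in the 6 retinas, with a median of 149, so that brain was above all of them (log2 difference 2.00 ± 0.24; adjusted p = 0.000317). In mammals VAMP5 was described in muscle. The endosomal VAMP gene vamp3 read 929 in brain and 388 to 736 in the retinas (1.02 ± 0.31; adjusted p = 0.0412), a call lost without any one of the true control and the controls of days 2, 5 and 14 (adjusted p 0.0630 to 0.102). Immune marker genes were also higher in brain, with a summed signal of 18359.7 over 14 genes against 3081 to 6086 in the retinas. Brain was above all 6 retinas for 11 of these genes and below for 2, where 32.3% and 20.6% of all tested probe sets were so. Other lists were higher too: brain was above all retinas for 5 of 5 myelin genes and 17 of 18 brain regional genes. For 10 Müller glia genes it was above for 5 and below for 4. The part of any of these cell types in the vamp5 and vamp3 differences was not tested.

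Transporter genes gave no call among those that passed the filter. The vesicular amino acid transporter gene slc6a17 read 1994.5 in brain, 842, 1122.5 and 955 in the block 1 retinas, and 1085 to 2354 in block 2 (log2 difference 1.01 ± 0.37; adjusted p = 0.0812). It passed against block 1 retinas alone (0.0166) and without control day 3 (0.0242) or control day 7 (0.0316). The lysosomal sialic acid transporter gene slc17a5 read 380.1 in brain and 164 to 320 in the retinas, and did not pass (0.67 ± 0.28; adjusted p = 0.130). The dopamine transporter gene slc6a3, the GABA transporter gene slc6a11a, slc6a19a.1, slc6a19b and the nucleotide transporter gene slc17a9b were dim in both tissues and were not tested, nor were stx2a, stx6 and stx11a. The second probe set of slc17a9b read 6.3 in brain and 3 to 19.1 in the retinas, so it did not show the higher brain signal of the first. The slc17a genes present were slc17a5 and slc17a9b, and neither is a vesicular glutamate transporter.

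**Figure D3:**
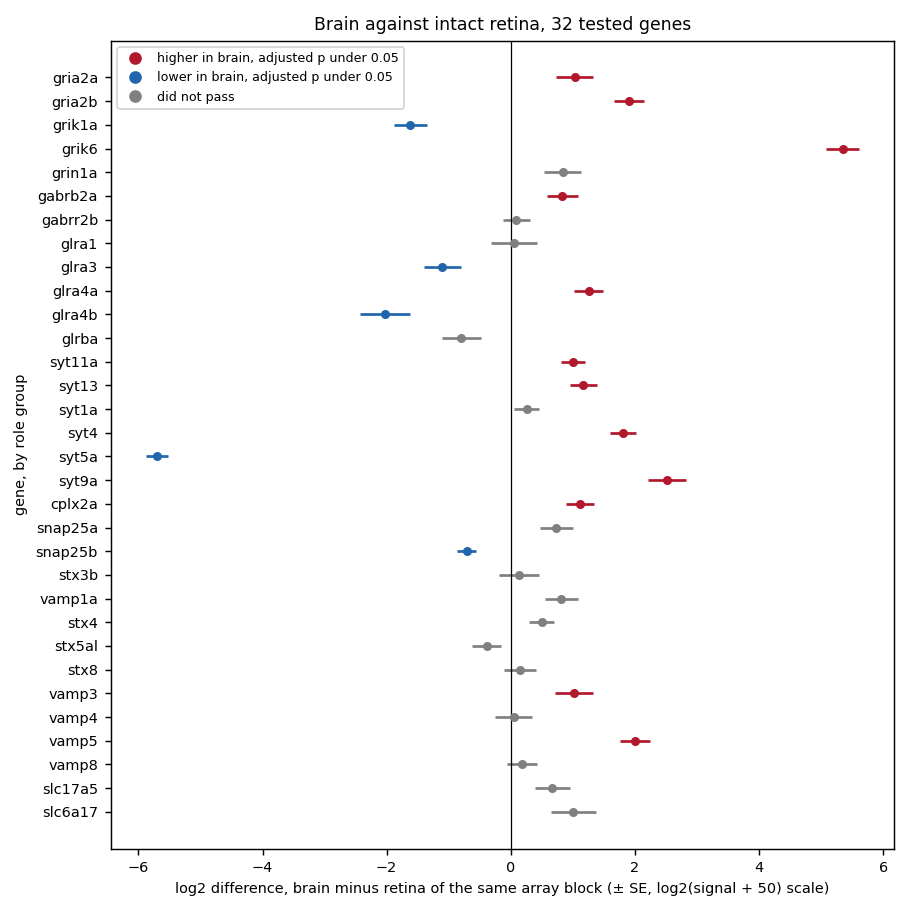
Fitted log2 difference between brain and intact retina of the same array block for the 32 tested genes (points) with its SE (bars), on the log2(signal + 50) scale. Red points mark the 12 genes higher in brain, blue points the 5 lower in brain and grey points those that did not pass; syt5a and grik6 lie beyond 5 in opposite directions.

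The range of all 6 retinas gives a view of the same data that does not rest on the block term. Of the 32 genes, 18 had a brain signal above every retina and 5 below every retina, where 32.3% and 20.6% of all tested probe sets did. Among the called genes, syt4 and glra3 were the exceptions that lay inside the range. Between blocks, unlesioned retinas did not overlap for 15 of the 32 genes, 8 higher in block 2 and 7 lower, and the shares over all probe sets were 21.4% and 33.8%. Outside the called genes, glra1 had a block difference of 1.59 on the log2 scale, with 88.3, 141 and 115 in block 1 and 276 to 633 in block 2. Grik6, syt5a, syt9a, vamp5, gria2b, grik1a and syt13 kept their calls in each of the 13 alternative fits, among them the fit with no block term. The other called genes lost theirs in that fit. Their log2 differences in it were 0.82 for cplx2a, 0.77 for syt11a, -1.04 for snap25b, 1.14 for glra4a and -1.67 for glra4b. Those of gria2a, vamp3, gabrb2a, glra3 and syt4 were 1.02, 0.92, 0.72, -0.52 and 0.88.

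The second comparison asked how these genes differ between lesioned and control retina of the same day. A single gene was called over the 5 days: vamp5 rose 1.78-fold on the log2(signal + 50) scale. None of the 30 tested genes was called lower, and no receptor, synaptotagmin, complexin or neuronal SNARE gene was called in either direction. Among all 9301 tested probe sets, 3.62% were called up and 0.548% down, against 3.33% and 0% of the 30 genes, so the share of genes called up was near the background. At an unadjusted p under 0.05 there were 5 higher and 2 lower, where 10.5% and 7.57% of all probe sets were so. The median log2 change was -0.04 for the 30 genes and -0.01 for all probe sets, and the SE of a single gene was 0.09 to 0.15. In simulated data, 92% of changes of log2 1, rises and falls together, were recovered by the same fit at 9301 probe sets. These were changes on the log2(signal + 50) scale, equal on all 5 days and with independent noise. Smaller changes, and changes limited to some days, were not simulated. Gabrr2b, glra4a, grik6, stx2a, stx6, slc17a9b and 4 slc6a genes were too dim for a test.

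The vamp5 signal was 156, 120.1, 95.0, 142 and 186 in control retinas of days 2, 3, 5, 7 and 14, and 401, 187, 236, 289 and 351 in the lesioned ones. The groups did not overlap, though lesioned day 3 was only just above control day 14, and the lesioned array was higher on each day. Groups did not overlap in this direction for 0.785% of all probe sets and in the other for 0.172%, and vamp5 was the only one of the 30 genes without overlap. Matched log2 ratios were 1.13, 0.48, 0.98, 0.82 and 0.76, and their fitted mean was 0.83 ± 0.12 (SE, n = 5 pairs; limma adjusted p = 0.00123). Within array blocks the mean was 0.95 in block 1 (2 pairs, adjusted p = 0.181) and 0.76 in block 2 (3 pairs, adjusted p = 0.0121). With the day left out of the model it was not called (adjusted p = 0.523), and no probe set at all was. It stayed called without the pair of any one day and with the GAPDH ratio as a covariate (1.04; adjusted p = 0.0462).

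Immune marker genes also rose after lesion. Of 14 measured, 7 were called up and none down among the 12 tested, where 3.62% of all probe sets were called up. Their median log2 change was 0.83. The summed immune signal was 3081 to 6086 in control and 5804 to 13208 in lesioned retinas. It was higher on 5 of 5 days, and none of these genes was at 0 in any array. Its log2 ratios were 0.52, 0.91, 1.12, 0.97 and 0.43 on days 2, 3, 5, 7 and 14. The ratio of the immune sum was lower on day 2 than on day 3, and that of vamp5 was higher. Day 2 is in array block 1 and day 3 in block 2, and the part of the block in this contrast was not tested. A sum is weighted to bright genes, among them cd74a, at -1.61 on day 2. Of the called genes, lcp1, ptprc and lgals9l1 were higher on day 2 than on day 3, like vamp5, and coro1a, apoc1, laptm5 and grna were lower. Among 10 Müller glia genes, 3 were called up. The summed signal of 5 erythrocyte genes was higher on 4 of 5 days and lower on day 14 (log2 ratio -0.74), with none of 4 tested genes called. The part of these cells in the vamp5 rise was not tested. The brain and lesion comparisons of vamp5 share control arrays (days 2 and 14 in the brain difference itself, all 5 in its estimate of spread), so its differences of 2.00 and 0.83 are not independent.

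**Figure D4:**
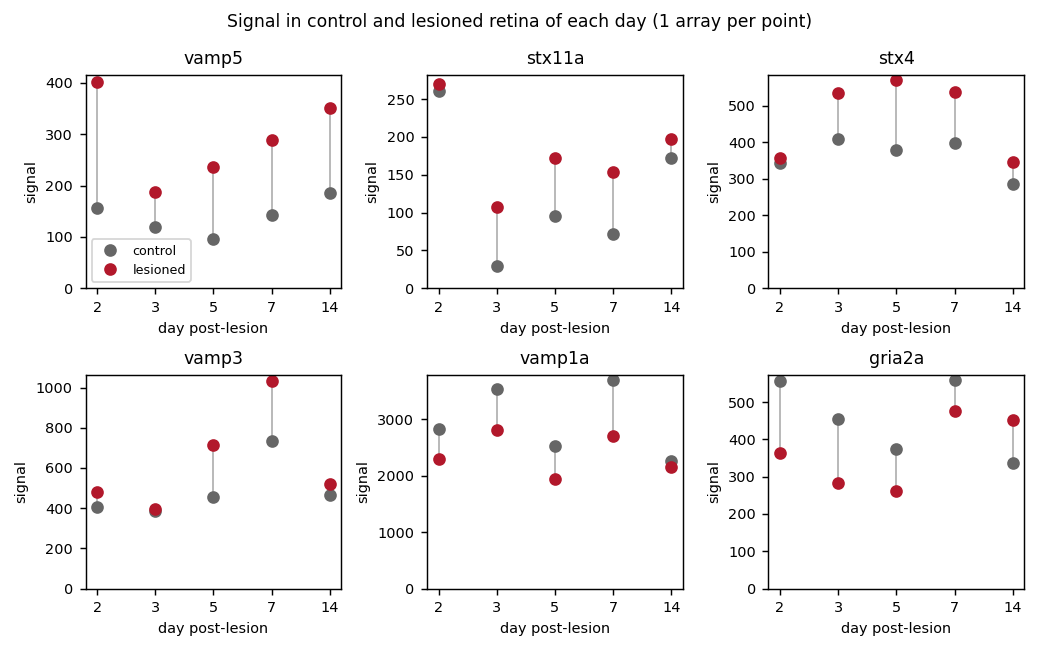
Signal (linear axis from 0) of 6 genes in the control (grey) and lesioned (red) retina of each day post-lesion, 1 array per point, with a line joining the arrays of a day. The lesioned vamp5 signals of 187 to 401 lie above all control signals of 95.0 to 186, while the groups of the other 5 genes overlap.

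Among the other traffic SNARE genes, stx11a, stx4 and vamp3 had the smallest p, without passing. Stx11a, whose mammalian namesake serves granule release in cytotoxic lymphocytes, read 261, 29.2, 95.0, 72.1 and 173 in controls and 270.3, 107, 172, 154 and 197 in lesioned retinas. The lesioned array was higher on each day, but the difference was small on days 2 and 14 and the groups overlapped widely. Its mean log2 change of 0.51 ± 0.15 missed the threshold (adjusted p = 0.0669) and passed without day 2 (0.0477), without day 14 (0.0459) and in block 2 alone (0.0167). The plasma membrane syntaxin gene stx4 read 343, 410.2, 379, 397.5 and 287 in controls and 355.5, 536, 571, 538 and 345 in lesioned retinas (0.31 ± 0.11; adjusted p = 0.116). For vamp3 the signals were 407, 388, 454, 736 and 464.5 against 482, 394.5, 713, 1031.5 and 522 (0.29 ± 0.11; adjusted p = 0.159). In both genes the lesioned array was higher on 5 of 5 days, as it was for 4 of the 30 genes and 9.31% of all probe sets. The remaining traffic genes with a test, stx5al, stx8, vamp4 and vamp8, had mean changes between -0.09 and 0.04.

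On the neuronal side, vamp1a had the smallest p. It read 2830, 3526, 2521, 3696 and 2253 in controls and 2286, 2811, 1946.5, 2700.2 and 2151 in lesioned retinas. The lesioned array was lower on each day, least on day 14, and the groups overlapped (log2 change -0.30 ± 0.09; adjusted p = 0.0900). Lower on all 5 days held for 3 of the 30 genes and for 7.19% of all probe sets. The other neuronal SNARE genes were closer to 0, with -0.04 ± 0.12 for snap25a, -0.07 ± 0.09 for snap25b and -0.16 ± 0.12 for stx3b. Synaptotagmin and complexin genes also gave small means, at -0.10 ± 0.09 for syt5a, 0.01 ± 0.09 for syt1a and -0.05 ± 0.09 for cplx2a. The widest ratios in these families were those of syt4, at 0.66 and 0.83 on days 2 and 3 and -0.17, -0.17 and 0.02 on days 5, 7 and 14 (mean 0.24 ± 0.14; adjusted p = 0.428).

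Of the 4 glutamate receptor genes with a test, 3 had negative means, none with a call. For gria2a, control retinas read 557, 453, 375, 558 and 337.5 and lesioned retinas 364.5, 282, 262, 476 and 450.5. The lesioned array was lower on days 2, 3, 5 and 7 and higher on day 14, with log2 ratios of -0.55, -0.60, -0.44, -0.21 and 0.37 (mean -0.29 ± 0.13; adjusted p = 0.279). Without day 14 the mean was -0.45 and passed (adjusted p = 0.0447). The mean for grin1a of -0.34 ± 0.15 (adjusted p = 0.255) owed most to day 5, where the signal was 2456 in control and 1015 in lesioned retina (-1.23), and the second probe set of grin1a gave -0.04 ± 0.13. On the same day grik1a read 1290.3 and 841 (-0.59), against ratios of -0.18 to -0.02 on the other days (mean -0.19 ± 0.11; adjusted p = 0.373). The AMPA gene gria2b averaged 0.03 ± 0.12.

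For the inhibitory receptors, gabrb2a averaged 0.29 ± 0.14 (adjusted p = 0.270), with the widest gap on day 3, at 203 in control and 391 in lesioned retina. The glycine receptor genes averaged -0.23 ± 0.11 for glrba (adjusted p = 0.279), -0.17 ± 0.11 for glra4b, -0.06 ± 0.12 for glra3 and 0.04 ± 0.11 for glra1. Neither slc6a17 (-0.10 ± 0.12) nor slc17a5 (0.03 ± 0.11) differed beyond this error.

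**Figure D5:**
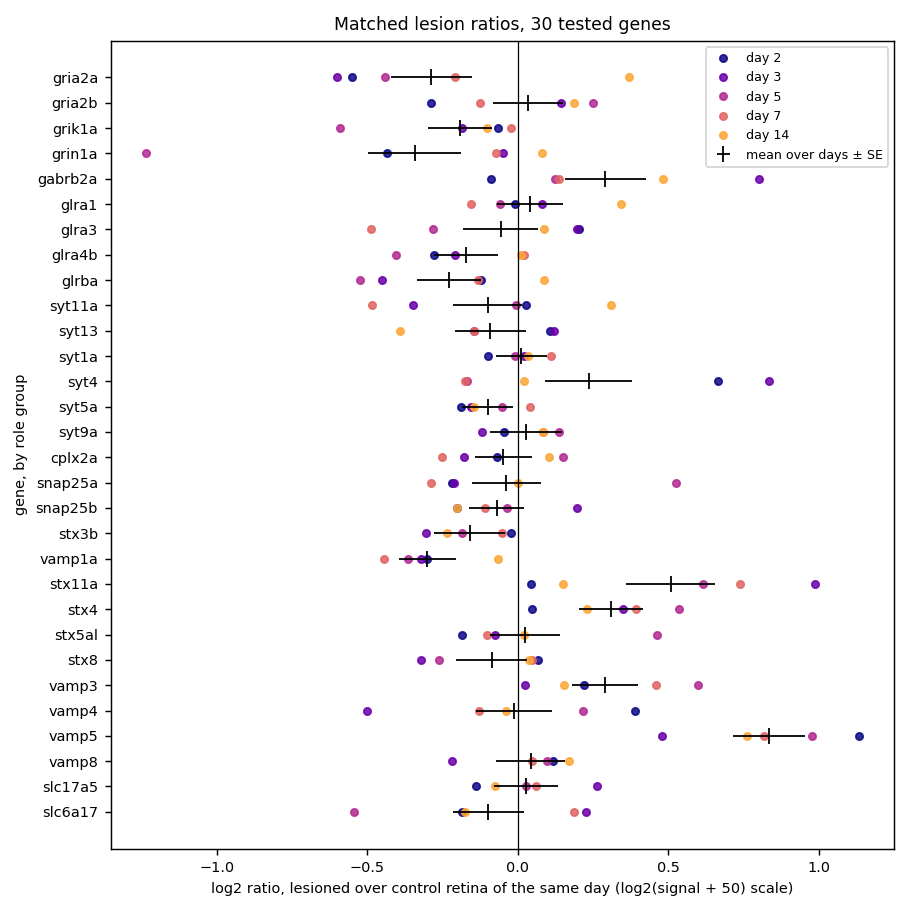
Matched log2 ratio of lesioned over control retina for the 30 tested genes on each day (coloured points) and the mean over the 5 days with its SE (black), on the log2(signal + 50) scale. All 5 points lie to the right of 0 for vamp5, stx11a, stx4 and vamp3, and the single grin1a point at -1.23 is day 5.

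Day by day, few of these genes had a matched ratio past 1.5-fold, and with 1 array on each side there is no test. Higher past that size were vamp5 and syt4 on day 2, stx11a, syt4 and gabrb2a on day 3, vamp5, stx11a and vamp3 on day 5, vamp5 and stx11a on day 7, and vamp5 on day 14. Lower past it were gria2a on day 3, and grin1a and grik1a on day 5. The shares of all tested probe sets past 1.5-fold were 4.35% up and 2.23% down on day 2, 7.55% and 6.88% on day 3, 6.84% and 2.86% on day 5, 5.56% and 2.53% on day 7, and 1.53% and 0.548% on day 14. The median ratio of the 30 genes was -0.07, -0.06, -0.02, -0.06 and 0.06 on the 5 days, while that of all probe sets was between -0.01 and 0.01. Ratios above 0 numbered 11, 14, 13, 13 and 21 of the 30 on days 2, 3, 5, 7 and 14. The share of all probe sets above 0 was not counted.

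A trend of the lesion difference with log2 of the day was called for none of the 30 genes (limma, 3 residual degrees of freedom), where 10 probe sets (0.108%) were called down and none up. Unadjusted p-values under 0.05 were found for gria2a, whose difference moved by 0.34 ± 0.11 per doubling of the day (adjusted p = 0.981), and for syt4, at -0.32, where 1.51% of all probe sets had such a p upward and 2.11% downward.

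Another 4 lists of synaptic genes were read from the same fits. One gene in them was called after lesion, where 3.62% of all probe sets were called up and 0.548% down. This gene, syngr2a, a synaptogyrin, from a family of vesicle membrane proteins, rose by 0.72 ± 0.14 on the log2 scale (adjusted p = 0.0103). It was among 14 tested of 18 measured presynaptic genes (median change -0.03). No gene passed among 5 ribbon synapse genes (median -0.20), 9 postsynaptic scaffold genes (-0.10) and 11 genes of transmitter synthesis and uptake (-0.11). The summed signal of each of the 4 lists was lower in the lesioned array on 5 of 5 days, by at most 0.51 on the log2 scale. A sum is weighted to bright genes. The value of 0.51 was for the ribbon list on day 2, where its brightest gene, unc119.2, was at -0.78, against 0.01 on day 5. The summed signals of 6 rod, 2 bipolar and 9 amacrine genes were lower on 5 of 5 days as well, and the GAPDH ratio too. The amacrine list shares gad1b, gad2, slc32a1 and th with the transmitter list. Sums of 4 horizontal, 11 cone and 10 Müller glia genes were higher on 1, 3 and 4 of the 5 days. The part of these cell types and of the GAPDH ratio in the synaptic sums was not tested.

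In the brain comparison, where 13.5% of all probe sets were called higher in brain and 10.1% lower, the presynaptic list had 3 genes higher in brain of 14 tested, the synapsin gene syn1 (1.56 ± 0.25), the adhesion gene nrxn1a (1.12 ± 0.34) and the vesicle GTPase gene rab3c (0.94 ± 0.23). Ribbon synapse genes were mostly lower in brain, with 3 of 5 called: unc119.2, related to a photoreceptor synaptic protein, at -5.53 ± 0.20, the calcium channel subunit gene cacnb2b at -2.44 ± 0.25 and the scaffold gene lin7a at -0.89 ± 0.23. In that list ctbp1 was higher, at 1.13 ± 0.26. Of 9 scaffold genes, dlg1a and cacng2b were higher and dlgap4a lower, and of 12 transmitter genes, glulb, slc1a2b, slc1a3a, slc1a4 and abat were higher and gad1b lower. For abat, however, brain at 2149 lay within the range of the unlesioned retinas, 541 to 3004.

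Second probe sets did not always give the same direction between brain and retina. They did for grin1a, glra4a and syt11a, and for syt1a in the fit (log2 differences 0.25 and 0.43). Brain was however below the mean of the 6 unlesioned retinas with the second syt1a probe set, at 4219 against 4374. That of syt11a was also called higher in brain (log2 difference 1.11 ± 0.28), though brain at 3956 lay within its retina range of 1770 to 5805. For the dim genes stx6, stx11a and slc17a9b, brain was above the mean of the unlesioned retinas with one probe set and below it with the other. The probe sets of stx5al differed in sign between brain and retina, at -0.39 and 0.26, and neither passed. Cross-hybridization between paralogs such as gria2a and gria2b was not tested.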

How the data were processed

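Total RNA from 12 zebrafish samples was read on Affymetrix arrays. Per the submitters' processing notes, the deposited signal intensities were made with GCOS. The intensities, with software settings not given in the sources used here, are linear, and their mean without the lowest and highest 2% was 499.7 to 499.8 on each array, so a scaling had been applied. The number of arrays limits the precision. Of 15617 probe sets, 115 controls were left out; 10795 had 1 symbol, 135 several and 4572 none. All 40 chosen genes matched a RefSeq gene table of assembly GRCz12tu, with no symbol changed.

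Signals were tested as log2(signal + 50), which understates changes of dim probe sets. A filter at the 40th percentile of mean signal over groups left 9301 probe sets. Tests used limma 3.58.1 (lmFit, eBayes with trend) in R 4.3.3, with Benjamini-Hochberg adjustment over all tested probe sets and a threshold of 0.05, two-sided. All adjusted p-values are from limma. Lesion and control were fitted with the day as a block, since the design text calls the animals matched. Same-day arrays deviated together (r 0.754 to 0.897 on the 5 days), and each control array correlated best with its own day. The arrays of a day always shared an array block, and the part of the block in these correlations was not tested. The trend added lesion times centred log2 of the day. Brain was fitted against the 6 unlesioned retinas with the array block as a term. By-day ratios had no test.

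On simulated data with the real means and independent noise, the lesion fit recovered 92% of changes of log2 1, equal on every day, and 100% of log2 2. The brain fit recovered 24% and 80%. Of unchanged probe sets, 0.0989% and 0.0440% were called.

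The genes named were those called in any test, the 12 with the smallest lesion p, the extremes of each role group and those with the largest ratios of a day. Others are named to account for the whole set. Members, gene lists and tests were chosen with earlier results of these data known. Alternatives changed the pseudocount, filter, scaling, probe set rule, blocks, RNA quality term and samples. Plots used matplotlib 3.10.9 and pandas 2.3.3.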

Additional observations from a re-analysis of the deposited data

Results flagged for a closer look

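Among the 27 genes named by rule, 54 groups of values were tested for a sample far from the others, and chance gives about 1 in 20. There were 2. The matched log2 lesion ratio of grik1a on day 5 was -0.59, against -0.18 to -0.02 on the other days. The vamp3 value of control day 7 was 9.62 on the log2(signal + 50) scale, against 8.77 to 9.01 in the other unlesioned retinas.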

How the results depend on the processing

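No called gene changed sign in any alternative fit, and of the single-gene values, 781 were on the same side of the threshold as reported, 12 newly passed and 25 no longer passed. Some means without a call did change sign, among them the lesion means of gria2b (5 of 14 fits), slc17a5 (4) and vamp4 (4). The lesion median of the genes was -0.04 as reported and 0.009 without the day 7 pair. With no replicate block by day, no probe set or gene was called up or down after lesion (0), and vamp5 had an adjusted p of 0.523. Pairs of array block 1 alone also gave 0 in each direction. Pairs of block 2 gave 2 genes up, vamp5 and stx11a, where 371 probe sets were called up and 62 down. With the GAPDH 5'/3' ratio as a covariate, 14 probe sets were called up and 0 down, vamp5 among those up. Without the filter, 24 probe sets were called down. Leaving out the pair of each day in turn gave 154 to 430 probe sets up (154, 170 and 214 without days 7, 5 and 3), 16 to 113 down (highest without day 14), 1 to 2 genes up (stx11a joining without day 2 or 14) and 0 to 1 down (gria2a, without day 14). For the trend, a pseudocount of 16 gave 5 probe sets down and leaving out a day 1 (day 14) to 8. For brain, the gene median without the filter was 0.37, and 2 of 17 calls (gabrb2a, vamp3) were exchanged for 2 others. With no array block term, 584 probe sets were called up, 424 down, and 5 genes up and 2 down, where the main fit called 1257 probe sets up and 937 down. Block 1 retinas alone gave 1524 probe sets up and 1092 down, and 16 genes up and 5 down. Leaving out each retina gave 976 to 1428 probe sets up and 694 to 1026 down, and 9 to 15 genes up and 4 to 5 down. By day, a pseudocount of 100 left 1 ratio past 1.5-fold down, against 3. The cause of these shifts was not tested, except that fits with fewer pairs or arrays have fewer residual degrees of freedom. Dim genes close to the lower quartile of signal have folds set largely by the pseudocount.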
